A study of Mus musculus with 15 samples.

Results

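S100 genes encode small calcium-binding proteins, and 8 of them were followed here in the livers of ageing mice: S100a1, S100a4, S100a6, S100a8, S100a9, S100a10, S100a11 and S100a13. They were taken by name from a table of raw read counts that held 37991 gene identifiers, and each of the 8 matched 1 identifier. RNA from whole liver was sequenced in 15 libraries, 5 in each of 3 groups, to ask how age and the loss of ribosomal S6 kinase 1 (S6K1, encoded by Rps6kb1) alter the liver. Young WT mice (libraries 1, 2, 3, 4 and 6) were S6K1 wild type and 90 days old, old WT mice (1, 4, 5, 7 and 10) were wild type and 600 days old, and old KO mice (1, 2, 4, 5 and 6) were 600 days old and lacked S6K1. All were female C57BL/6 mice on chow, and WT and KO animals were bred from heterozygous parents. The knockout was present throughout life and in every tissue, and no young knockout group was sequenced, so genotype was compared at 600 days only. Each library came from a separate mouse, as the study describes its groups, so p-values measure the spread between mice.

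Each S100 protein carries paired EF-hand motifs, loops that bind calcium, and most work as dimers that change shape when calcium rises and then grip a partner protein. S100a10 is the exception, being held in the calcium-bound shape without calcium, and it joins annexin A2 at the cell membrane, where the complex binds plasminogen. S100a8 and S100a9 are made in quantity by neutrophils and monocytes, are released as a joint complex that binds zinc, and signal through Tlr4 and Ager (the RAGE receptor). Most hepatocytes are known to make little S100a4 or S100a6, which are common in myeloid, mesenchymal and bile duct cells.

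Total counts lay between 21801754 and 38065359 per library. Levels are given as CPM, read counts relative to the total of the library after TMM scaling, and the least abundant members rest on 5 to 137 reads per library, so their counting error was large. The targeted gene Rps6kb1 was at 33.3 to 41.4 CPM in young WT, 34.6 to 45.4 CPM in old WT and 15.2 to 20.8 CPM in old KO, a difference of -1.17 on the log2 scale between the old groups (SE 0.0979, edgeR adjusted p 8.54e-06). The libraries thus match their genotype labels, and some reads of the gene remained in old KO. Hepatocyte markers were the most abundant of the marker lists, with a summed level of 79421 CPM in young WT 6 and of 91625 CPM or more in each other library. Skeletal muscle genes summed to 21.7 CPM in old KO 6 and to 0.290 to 0.747 CPM in the other 14 libraries. All 30 pairs of replicates within groups differed by more than sampling noise (chi-square per degree of freedom 18.2 to 118).

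All 8 genes lie on chromosome 3 (NCBIM37, the build called mm9), where 13 of the listed S100 genes are found. S100a1 (minus strand, 90314956 to 90318314), S100a13 (plus, 90318357 to 90328503), S100a4 (plus, 90407692 to 90409967), S100a6 (plus, 90416816 to 90418336), S100a8 (plus, 90472993 to 90473956) and S100a9 (minus, 90496554 to 90499643) stand in a stretch of 185 kb. S100a11 (plus, 93324410 to 93330209) and S100a10 (plus, 93359002 to 93368565) stand 2.82 Mb further on. All 8 are protein coding, and no exon of any of them overlaps an exon of another gene on either strand. S100a1 and S100a13 point away from each other with 42 bases between them.

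S100a8 and S100a9, whose products form the joint complex, had the same highest and the same lowest library in each group. Upstream sequences are shown for both and for the members that rose with age (S100a4 and S100a11). They are the 250 bases before the RefSeq start (table build GRCm38.p6, of which 7 of the 8 genes had an entry), each with 1 exact match on chromosome 3 of NCBIM37, and the stretch between S100a1 and S100a13 follows them. Capitals mark matches on either strand to the letters of 4 motifs. The TATA box was searched as TATAAA and the GC box as GGGCGG. The site of AP-1 factors was searched as TGANTCA and that of C/EBP factors, which act in hepatocytes and myeloid cells, as TTNCNNAA. No match overlapped another. The windows are chr3:90407442-90407691 (plus strand, S100a4), chr3:93324168-93324417 (plus, S100a11), chr3:90472743-90472992 (plus, S100a8), chr3:90499644-90499893 (minus, S100a9) and chr3:90318315-90318356 (plus, between S100a1 and S100a13).
S100a4: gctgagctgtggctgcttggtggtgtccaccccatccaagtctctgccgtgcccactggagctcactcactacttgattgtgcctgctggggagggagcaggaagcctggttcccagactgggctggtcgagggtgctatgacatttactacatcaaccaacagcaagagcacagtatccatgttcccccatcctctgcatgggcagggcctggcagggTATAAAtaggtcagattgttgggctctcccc
S100a11: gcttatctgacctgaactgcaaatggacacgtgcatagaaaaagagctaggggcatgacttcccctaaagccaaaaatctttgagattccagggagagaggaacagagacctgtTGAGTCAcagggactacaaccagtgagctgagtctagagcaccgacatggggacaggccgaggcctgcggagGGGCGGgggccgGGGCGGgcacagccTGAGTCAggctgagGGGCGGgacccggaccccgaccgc
S100a8: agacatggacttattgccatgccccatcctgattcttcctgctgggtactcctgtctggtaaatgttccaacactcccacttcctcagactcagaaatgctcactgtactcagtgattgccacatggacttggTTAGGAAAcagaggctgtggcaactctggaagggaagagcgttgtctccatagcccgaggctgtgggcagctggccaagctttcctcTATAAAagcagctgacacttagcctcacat
S100a9: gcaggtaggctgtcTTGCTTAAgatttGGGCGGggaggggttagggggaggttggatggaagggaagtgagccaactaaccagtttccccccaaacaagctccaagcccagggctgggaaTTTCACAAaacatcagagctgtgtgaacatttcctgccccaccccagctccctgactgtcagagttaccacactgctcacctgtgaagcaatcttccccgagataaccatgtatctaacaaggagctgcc
S100a1 to S100a13: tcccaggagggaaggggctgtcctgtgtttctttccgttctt

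Counting back from the start, S100a4 held a TATA box at -31 and S100a8 one at -30, a match found in 12.4% of 32851 windows of this length. S100a11 held AP-1 matches at -136 and -38 (6.75% of windows hold one) and GC boxes at -64, -52 and -24 (32.7%). S100a9 held C/EBP matches at -236 and -130 and a GC box at -223, and S100a8 held a C/EBP match at -117 on the opposite strand (36.8% of windows hold one). The windows of S100a1, S100a6 and S100a13 and the stretch between S100a1 and S100a13 held no match to any of the 4 motifs, which says only that these letters are not there.

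S100a10 and S100a1 were the most abundant members in every group. Per kilobase of exon, S100a10 was at 89.1 ± 7.15 CPM in young WT (SD, n = 5), 59.6 ± 23.0 CPM in old WT and 63.5 ± 4.19 CPM in old KO. S100a1 was at 81.1 ± 5.25, 91.3 ± 10.8 and 102 ± 15.1 CPM per kilobase in the same groups. Their ranges overlapped in young WT and old WT and did not in old KO, where S100a1 was the higher in every library. S100a13 came next, at 23.0 ± 5.44, 25.7 ± 3.56 and 30.0 ± 3.57 CPM per kilobase, apart from its neighbours in each group. S100a11 was at 4.99 ± 0.891, 8.41 ± 1.43 and 7.88 ± 2.81 CPM per kilobase. The 4 lowest members, S100a9, S100a8, S100a6 and S100a4, had group means between 0.578 and 4.29 CPM per kilobase, and neighbours in that order overlapped in every group. S100a10 made up 57.9% ± 2.82 of the summed CPM of the 8 genes in young WT, 42.6% ± 9.21 in old WT and 43.3% ± 3.23 in old KO (SD, n = 5 each).

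**Figure D1:**
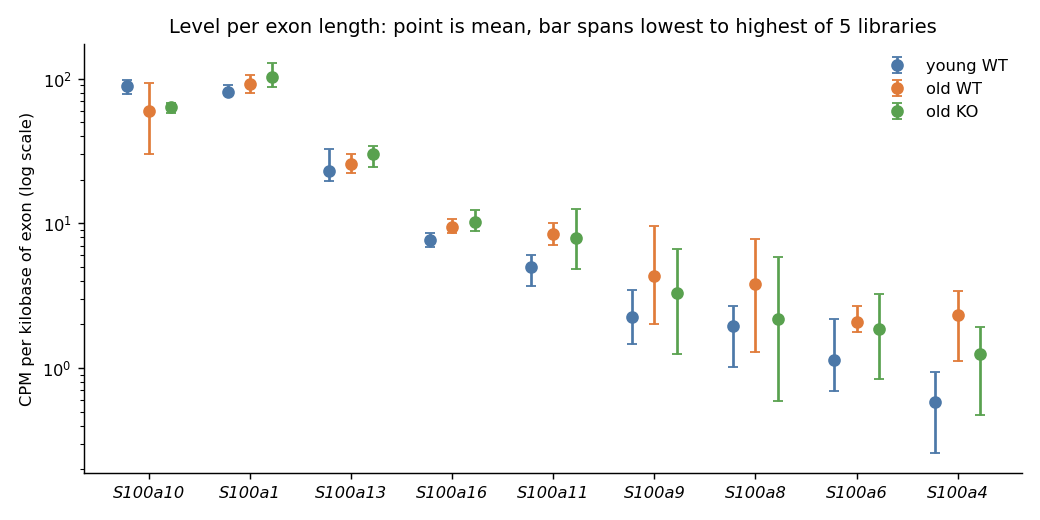
Level of 9 S100 genes per kilobase of exon, on a log axis in CPM per kilobase, with the mean (point) and the lowest and highest of 5 libraries (bar) in each group. S100a10 and S100a1 stand highest, and S100a9, S100a8, S100a6 and S100a4 stand lowest with bars that overlap. S100a16 is the only other S100 gene that passed the filter on low counts.

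With age in wild-type liver, S100a4 and S100a11 rose and S100a10 fell, while the other 5 members did not pass the test (old WT against young WT, edgeR quasi-likelihood test, Benjamini-Hochberg adjusted p under 0.05 over 14258 genes). S100a4 had the largest change, 4.07-fold, S100a11 rose 1.68-fold, and S100a10 was at 0.668 of its young level. All 8 members passed the filter on low counts, 7 had a fitted change above 0, and their median log2 fold change was 0.81 against 0.01 over all genes tested. The 3 calls among 8 stand beside 18.8% of all genes tested. By direction, 2 of 8 rose beside 9.92% of all genes, and 1 of 8 fell beside 8.91%. S100a4 and S100a11 were also the 2 members whose groups did not overlap, as did 11.4% of all genes. No test of the 8 genes as a set was made.

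**Figure D2:**
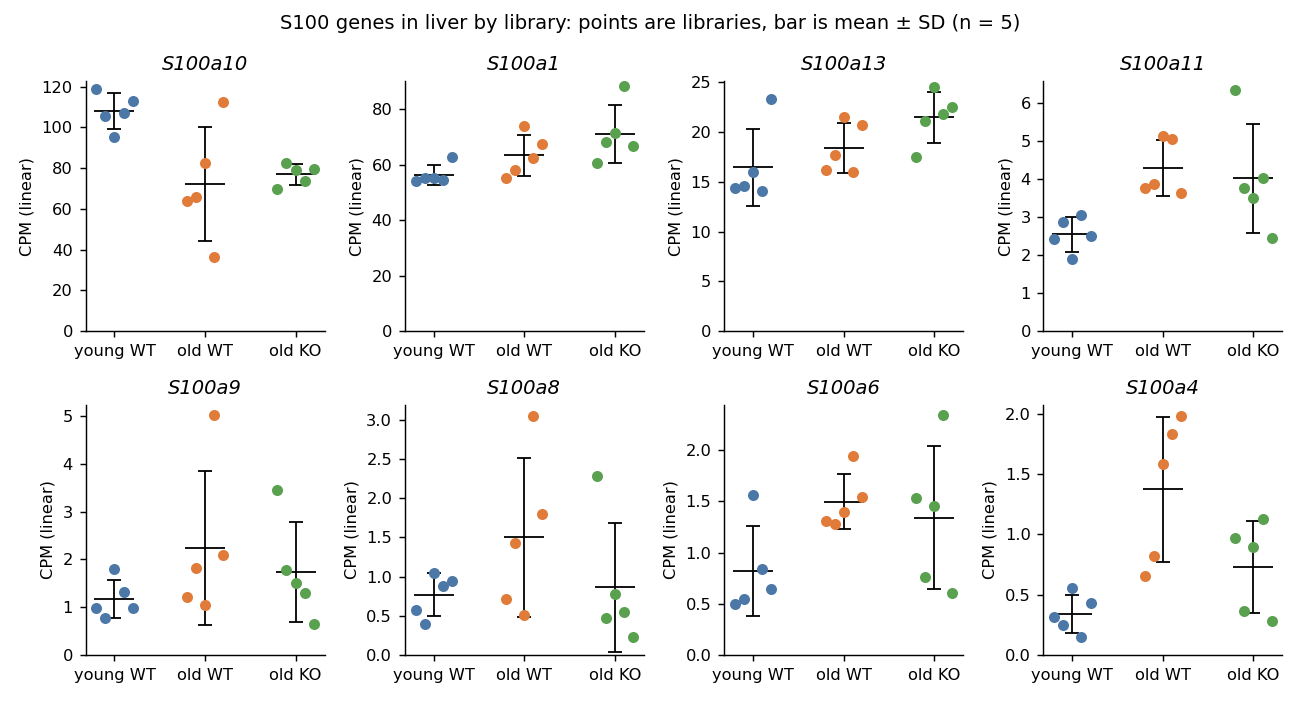
CPM of the 8 S100 genes in each library (points, linear axes from 0) with the group mean ± SD (n = 5). The old WT points of S100a4 and S100a11 all lie above the young WT points, S100a10 lies lower in 4 of 5 old WT libraries than in any young WT library, and S100a8 and S100a9 each have 1 old WT and 1 old KO point far above the rest of the group.

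S100a4, the member with the TATA box at -31, encodes a partner of non-muscle myosin found in motile cells. It was at 0.316, 0.244, 0.554, 0.151 and 0.431 CPM in young WT 1, 2, 3, 4 and 6. It was at 0.656, 0.818, 1.58, 1.83 and 1.98 CPM in old WT 1, 4, 5, 7 and 10. In old KO 1, 2, 4, 5 and 6 it was at 0.974, 0.363, 0.899, 1.13 and 0.278 CPM. Every old WT library lay above every young WT library, and the old KO libraries spread from young WT levels up to the middle of the old WT range. The rise with age was 2.02 on the log2 scale (SE 0.432, edgeR adjusted p 0.0052, 95% interval of the fold 2.26 to 7.31). It stayed past the threshold in each of the 15 fits that left out 1 library (adjusted p 0.0040 to 0.0164). These values rest on 5 to 17 reads per young WT library and 21 to 54 per old WT library, and the lowest count, 5 in young WT 4, has an exact Poisson 95% interval of 1.62 to 11.7 reads (counting error only). In whole liver, more cells of a type and more RNA per cell cannot be told apart.

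Some markers of leukocytes rose in the same comparison, in which 9.92% of all genes tested rose. Most were not called: 12 of 21 monocyte and macrophage, 8 of 12 T cell and NK, and 5 of 7 B cell markers. Fitted changes were below 0 for 2 of the 21 and 2 of the 12. Of 21 tested monocyte and macrophage markers 9 rose and none fell (Lyz2, Ly6c2, Ccr2, Cx3cr1, Itgax, Clec7a, Gpnmb, Trem2 and Ms4a7). The summed level of that list was 206 to 462 CPM in young WT, 283 to 651 CPM in old WT and 166 to 262 CPM in old KO. Of 12 tested T cell and NK markers 4 rose (Cd3e, Cd8a, Nkg7 and Gzmb), and the list summed to 4.06 to 9.53, 7.01 to 16.6 and 4.07 to 11.4 CPM. No marker of either list was at 0 in all libraries. Stellate cell and fibroblast markers gave 2 rises (Col3a1 and Vim) and 1 fall (Reln) among 12, and their sums overlapped (322 to 423, 262 to 420 and 251 to 487 CPM). Of 6 mesothelial markers 1 rose with age (Lrrn4), and they summed to 2.95 to 5.31, 6.80 to 9.46 and 2.88 to 13 CPM. Of the remaining lists, 2 of 7 B cell markers rose, 3 of 10 endothelial and 2 of 9 hepatocyte markers fell, and none of 6 red blood cell genes was called. The part of these cells in the level of S100a4 was not tested.

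**Figure D3:**
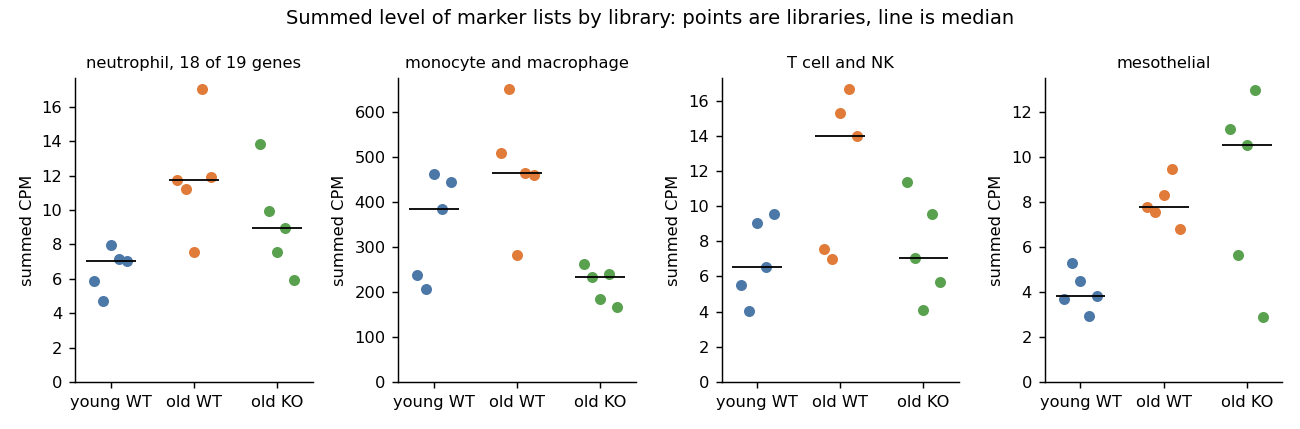
Summed CPM of 4 marker lists in each library (points, linear axes from 0) with the group median (line). Old WT medians are above young WT medians in all 4 panels, and the old KO macrophage sums of 166 to 262 CPM lie below every old WT sum. Lcn2 was left out of the neutrophil panel after its values were seen.

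S100a6 (calcyclin), a growth-induced member that binds the protein Cacybp, was at 0.500, 0.550, 1.56, 0.844 and 0.647 CPM in young WT 1, 2, 3, 4 and 6. It was at 1.31, 1.28, 1.40, 1.94 and 1.54 CPM in old WT 1, 4, 5, 7 and 10, and at 1.54, 0.763, 1.46, 2.35 and 0.603 CPM in old KO 1, 2, 4, 5 and 6. Young WT 3 reached the old WT range, the other 4 young WT libraries were below every old WT library, and old KO spread from below the young WT mean to above every old WT library. The age difference was 0.86 on the log2 scale (SE 0.355, edgeR adjusted p 0.0999), and without young WT 3 it was 1.24 and past the threshold (adjusted p 0.0239). Bile duct and epithelial markers, among the cells known for S100a6, gave 1 rise in 10 tested (Spp1), near the 9.92% of all genes that rose. They summed to 78.1 to 105 CPM in young WT, 59.5 to 180 CPM in old WT and 67.8 to 136 CPM in old KO. Their part in the level of S100a6 was not tested.

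S100a11, whose start region holds the AP-1 matches and GC boxes shown above, encodes a partner of annexin A1. It was at 2.42, 2.87, 1.89, 3.07 and 2.50 CPM in young WT 1, 2, 3, 4 and 6. It was at 3.78, 3.88, 5.13, 5.06 and 3.64 CPM in old WT 1, 4, 5, 7 and 10, and at 6.37, 3.78, 3.51, 4.02 and 2.46 CPM in old KO 1, 2, 4, 5 and 6. All 5 old WT libraries and 4 of 5 old KO libraries lay above all young WT libraries, and old KO 6 was inside the young WT range. The rise with age was 0.75 on the log2 scale (SE 0.212, edgeR adjusted p 0.0228). The call was lost without young WT 1 (adjusted p 0.0535), young WT 3 (0.0509) or old WT 5 (0.0598), with log2 fold changes of 0.67 to 0.73.

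S100a10 (p11), the annexin A2 partner, was at 119, 106, 95.5, 107 and 113 CPM in young WT 1, 2, 3, 4 and 6. It was at 63.6, 66.0, 82.3, 36.5 and 112 CPM in old WT 1, 4, 5, 7 and 10, and at 69.9, 82.7, 78.9, 73.7 and 79.5 CPM in old KO 1, 2, 4, 5 and 6. Old WT spread widely, with old WT 10 at the young level and old WT 7 the lowest of all 15 libraries, whereas old KO was tight and below every young WT library. The fall with age was -0.58 on the log2 scale (SE 0.194, edgeR adjusted p 0.0469). It kept its direction throughout but lost the call in 14 of the 15 fits that left out 1 library (adjusted p up to 0.104), with the 10 libraries of the contrast alone (0.0908) and with no filter on low counts (0.0547). Without old WT 10 it was -0.80 (adjusted p 0.0052), and without old WT 7 it was -0.40 (0.0521). Its partner Anxa2, the annexin A2 gene, went from 8.97 ± 2.91 CPM in young WT to 14.2 ± 2.55 CPM in old WT (SD, n = 5 each), a rise of 0.67 on the log2 scale (SE 0.211, edgeR adjusted p 0.0359) that lost its call in 7 of the 15 leave-one-out fits. The ratio of S100a10 CPM to Anxa2 CPM was 13.1 ± 4.37 in young WT, 5.41 ± 3.18 in old WT and 6.70 ± 2.20 in old KO (SD, n = 5 each).

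S100a8 was at 0.579, 0.397, 1.04, 0.874 and 0.949 CPM in young WT 1, 2, 3, 4 and 6, at 0.719, 1.42, 0.507, 3.04 and 1.80 CPM in old WT 1, 4, 5, 7 and 10, and at 2.28, 0.472, 0.771, 0.545 and 0.232 CPM in old KO 1, 2, 4, 5 and 6. S100a9 was at 0.974, 0.763, 1.79, 1.33 and 0.992 CPM in young WT, 1.22, 1.81, 1.04, 5.02 and 2.09 CPM in old WT and 3.44, 1.78, 1.5, 1.30 and 0.650 CPM in old KO, in the same order of libraries. Old WT 7 and old KO 1 were the highest for both genes, old KO 6 was the lowest for both, and all groups overlapped. Neither gene passed the test with age, at 0.96 (SE 0.532, edgeR adjusted p 0.222) for S100a8 and 0.92 (SE 0.442, adjusted p 0.156) for S100a9 on the log2 scale. Without old WT 7 the differences were 0.54 and 0.40. The ratio of S100a9 to S100a8 CPM was 1.58 ± 0.331 in young WT, 1.57 ± 0.358 in old WT and 2.48 ± 0.867 in old KO (SD, n = 5 each).

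Of 19 listed neutrophil markers 6 were tested, 3 of which rose with age (Lcn2, Cebpe and Chi3l3), beside 9.92% of all genes. Csf3r (0.51 on the log2 scale), Cxcr2 (-0.02) and Mmp9 (0.09) were not called. Lcn2 is also made by hepatocytes in acute phase responses. The whole list summed to 14.8 to 28.1 CPM in young WT, 23.3 to 153 CPM in old WT and 25.4 to 55.9 CPM in old KO. Without Lcn2, left out after its values were seen, the sums were 4.73 to 7.99, 7.54 to 17.0 and 5.94 to 13.9 CPM, and the highest were those of old WT 7 and old KO 1. With Lcn2 the highest sum was that of old WT 10 (153 CPM), and old WT 7 was at 80.4 CPM. Old WT 7 and old KO 1 were also the highest of their groups for T cell and NK, bile duct and stellate cell markers. So was old WT 7 for mesothelial, hepatocyte and red blood cell markers, and old KO 1 for macrophage and B cell markers. Of the 19 markers, 4 (Ly6g, Ceacam10, Fcnb and Ctsg) averaged under 1 read per library, the other 15 averaged more, and none was at 0 in all libraries. The part of neutrophil content in S100a8 and S100a9 was not tested.

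S100a1, best known from heart and skeletal muscle, where it acts on calcium release and uptake, was at 54.1, 55.2, 55.0, 54.4 and 62.8 CPM in young WT 1, 2, 3, 4 and 6. It was at 55.0, 58.2, 73.8, 62.3 and 67.4 CPM in old WT 1, 4, 5, 7 and 10, and at 60.4, 68.1, 71.4, 88.3 and 66.6 CPM in old KO 1, 2, 4, 5 and 6. Group means were 56.3, 63.3 and 71.0 CPM, and the groups overlapped. Old KO 6, the library with skeletal muscle transcripts, was at 66.6 CPM, and the part of muscle in S100a1 was not tested. The age difference in WT was 0.17 on the log2 scale (SE 0.10, edgeR adjusted p 0.250, 95% interval -0.03 to 0.37). S100a13, which takes part in the release of Fgf1 and Il1a from cells, was at 14.4, 14.5, 15.9, 14.1 and 23.3 CPM in young WT, 16.2, 17.6, 21.4, 16 and 20.7 CPM in old WT and 17.5, 21.1, 24.5, 21.8 and 22.5 CPM in old KO, in the same order of libraries. Young WT 6 was at the level of the highest old libraries and the other 4 young WT libraries were below all of them. The age difference was 0.16 (SE 0.140, edgeR adjusted p 0.435, 95% interval -0.11 to 0.44), and without young WT 6 it was 0.33 and past the threshold (adjusted p 0.0449). The ratio of S100a1 to S100a13, the divergent neighbours, was 3.52 ± 0.485, 3.46 ± 0.257 and 3.32 ± 0.464 in young WT, old WT and old KO.

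Loss of S6K1 in old mice moved none of the 8 members past the threshold (old KO against old WT, edgeR), beside 0.533% of all genes tested. DESeq2 and limma voom also called none, and 1 member, S100a4, had an unadjusted p under 0.05. The groups overlapped for all 8 members, beside 3.20% of all genes whose groups did not overlap. S100a4 was at 0.729 ± 0.383 CPM in old KO and 1.37 ± 0.602 CPM in old WT (SD, n = 5 each), a difference of -0.90 on the log2 scale (SE 0.405, unadjusted p 0.0402, edgeR adjusted p 0.401), with 2 of 5 old KO libraries below all old WT libraries. Over all alternatives its adjusted p was between 0.342 and 0.927. S100a8 differed by -0.76 (SE 0.535, adjusted p 0.629) and S100a9 by -0.34 (SE 0.436, adjusted p 0.826), and without old WT 7 the S100a9 value turned to 0.18. S100a6 differed by -0.15 (95% interval -0.83 to 0.53) and S100a11 by -0.09 (-0.50 to 0.32). For S100a10 the value was 0.09 (-0.29 to 0.47), for S100a1 0.16 (-0.03 to 0.36) and for S100a13 0.22 (-0.05 to 0.50). A fall as large as the fitted rise with age lies inside the 95% interval of S100a8 (-1.81 to 0.29) and of S100a9 (-1.20 to 0.51). For S100a6 the fitted rise was 0.86, just past the lower end of its interval (-0.83). These intervals are approximate, so they do not set S100a6 apart. In the same contrast 6 of 21 macrophage markers fell (Cd68, Clec4f, Vsig4, Cd5l, Cd14 and Clec7a), no marker of the other lists was called, and the part of macrophages in S100a4 was not tested.

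**Figure D4:**
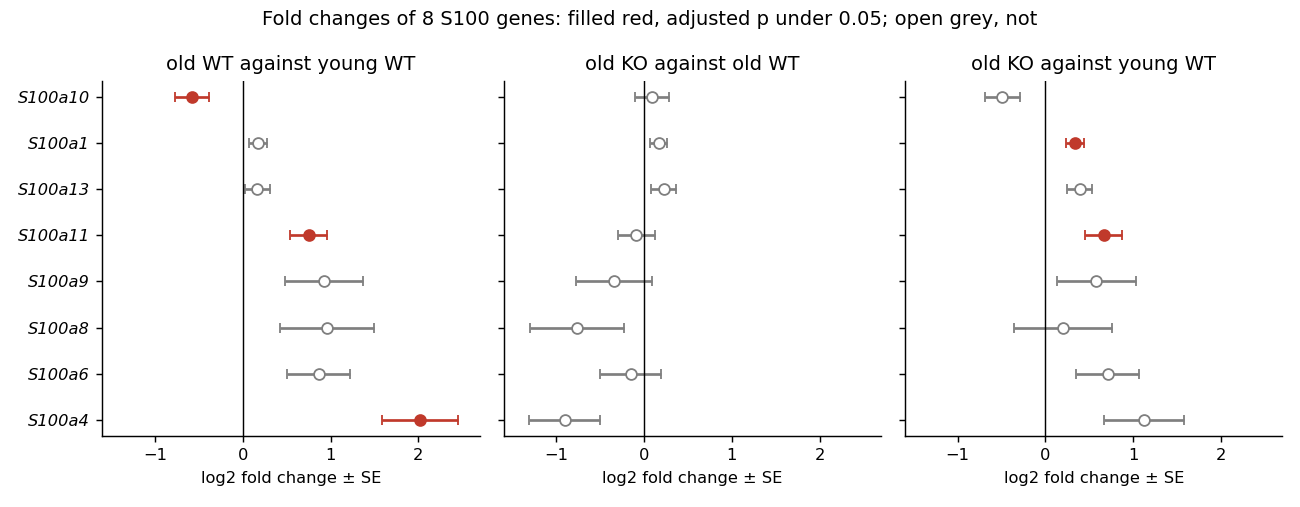
Fitted log2 fold change ± SE of each S100 gene in 3 comparisons, with filled red points for an edgeR adjusted p under 0.05. S100a4 (2.02), S100a11 (0.75) and S100a10 (-0.58) are filled for age, none for genotype, and S100a11 (0.66) and S100a1 (0.33) for old KO against young WT.

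Between old KO and young WT both age and genotype differ, and the young WT libraries are those of the age comparison. S100a11 rose by 0.66 on the log2 scale (SE 0.214, edgeR adjusted p 0.0353) and S100a1 by 0.33 (SE 0.10, adjusted p 0.0247). These 2 calls of 8 stand beside 23.3% of all genes tested, with 2 of 8 higher beside 12.0%. No member fell past the threshold in edgeR, DESeq2 or limma voom, beside 11.3% of all genes in edgeR, and 1 of them (S100a10) was lower at an unadjusted p under 0.05 (0.0225). The S100a11 call was lost without young WT 1, young WT 3, old KO 1 or old KO 5 (0.43 without old KO 1, adjusted p 0.109). The S100a1 call was lost without young WT 1, 2, 3 or 4 or old KO 5 (adjusted p 0.0501 to 0.0735). S100a13 differed by 0.39 (SE 0.140, adjusted p 0.0552), and was past the threshold with DESeq2 (0.39, adjusted p 0.0472), with limma voom (0.42, adjusted p 0.0342), without young WT 6 (0.55, adjusted p 0.0029) and without old KO 1 (0.45, adjusted p 0.0372). S100a10 differed by -0.49 (SE 0.194, adjusted p 0.0783) and was the 1 member whose groups did not overlap, beside 13.9% of all genes, and S100a4 differed by 1.12 (SE 0.456, adjusted p 0.0857). The adjusted p of S100a10 was 0.0019 in a fit of these 10 libraries alone, in which S100a11 was not called (0.0600). That fit held no old WT library and was filtered and scaled anew, and the cause of the difference was not tested. S100a6 (0.71, adjusted p 0.166), S100a9 (0.58, 0.372) and S100a8 (0.20, 0.824) did not pass either. In this comparison 5 of 6 red blood cell genes rose (sums of 47.3 to 110 CPM in young WT and 107 to 397 CPM in old KO). Of 12 stellate cell and fibroblast markers 4 rose and 1 fell, 3 of 10 endothelial markers fell (264 to 438 and 249 to 287 CPM), and of 21 macrophage markers 4 rose and 5 fell. Mesothelial and hepatocyte markers gave 2 rises each (of 6 and 9 tested), and the neutrophil, T cell and NK, B cell, bile duct and skeletal muscle lists gave 1 each. The part of these cells in the S100 values was not tested.

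Among the other S100 genes, 8 of 9 listed matched an identifier and S100a16 alone was tested. S100a16, a widely expressed member, rose from 12.3 ± 0.957 CPM in young WT to 15.3 ± 1.29 CPM in old WT (SD, n = 5 each), which is 0.32 on the log2 scale (SE 0.0981, edgeR adjusted p 0.0341), with every old WT library above every young WT library, and its call was lost in 7 of the 15 leave-one-out fits. It was at 16.4 ± 2.32 CPM in old KO, which differed from young WT by 0.42 (adjusted p 0.0069) and from old WT by 0.10 (not past the threshold). S100a14, S100g, S100b and S100a7a had 15, 12, 4 and 3 reads over all 15 libraries. S100a3, S100a5 and S100z had 0, which allows up to 0.0789 to 0.139 CPM per library (3 reads).

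Of 18 genes for partners and receptors of S100 proteins, all were tested and Anxa2 alone was called with age, beside 18.8% of all genes. With genotype, Cd14, the coreceptor of Tlr4, alone was called, beside 0.533% of all genes. It fell from 3.98 ± 0.924 to 1.92 ± 0.275 CPM (log2 fold change -1.04, SE 0.185, edgeR adjusted p 0.0247). Its groups did not overlap, as for 3.20% of all genes, and the call was lost in 5 of the 15 leave-one-out fits. Cd14 is also a macrophage marker. In old KO against young WT, Cd14 fell (-1.33, adjusted p 0.0003) while Anxa1, the partner of S100a11, rose by 0.69 (adjusted p 0.0171) and Plg, the plasminogen gene, by 0.27 (adjusted p 0.0457). These 3 calls of 18 stand beside 23.3% of all genes tested. The Plg call was lost in 11 of the 15 leave-one-out fits (adjusted p up to 0.110) and in 4 of the 8 other alternatives. The receptors Tlr4 and Ager, the S100a6 partner Cacybp and the S100a4 partner Myh9 were not called in any of the 3 comparisons. The median log2 fold change of the 18 genes was 0.12 with age, 0.00 with genotype and 0.17 in old KO against young WT, beside 0.01, 0.00 and -0.01 over all genes tested.

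Within groups, the low members went up and down together in some libraries. Of the 5 members with the lowest levels (S100a4, S100a6, S100a8, S100a9 and S100a11), 5 of 5 were above their group mean in old WT 7 and in old KO 1, and 0 of 5 in old WT 1 and in old KO 6. The largest deviations were those of S100a8 in old KO 1 (1.70 on the log2 scale) and in old KO 6 (-1.26), and of S100a9 in old WT 7 (1.37). S100a10 went the other way in old WT 7 (-0.89) and was highest in old WT 10 (0.73). S100a1 and S100a13 were both above their group mean in young WT 6 (0.16 and 0.53) and both below it in old KO 1 (-0.22 and -0.28). Each set of deviations comes from the same library and shares its scaling, and no test was made of them.

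**Figure D5:**
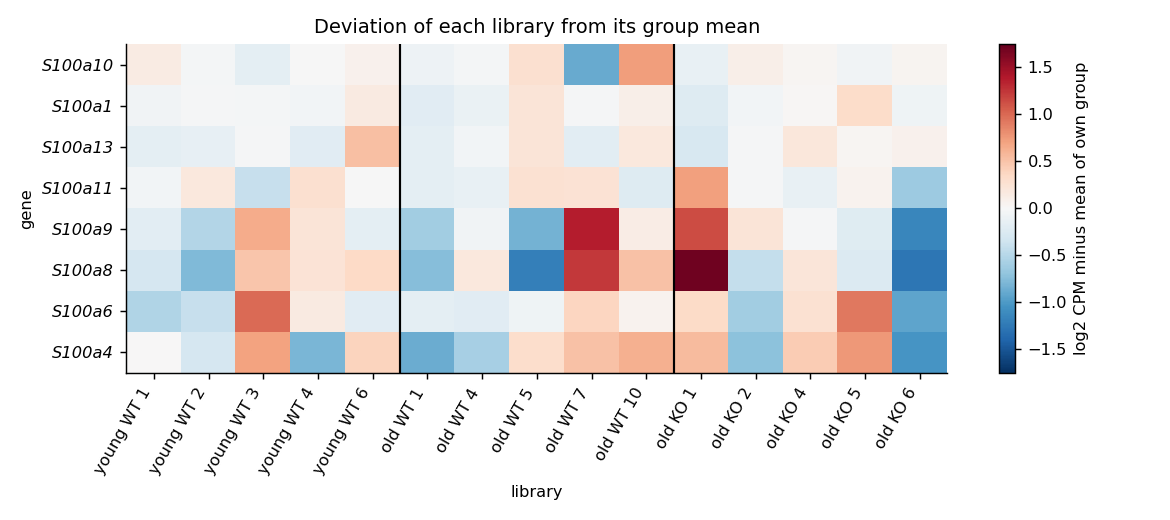
Log2 CPM of each S100 gene in each library minus the mean of its own group (colour, red above and blue below), with lines between the 3 groups. Old WT 7 and old KO 1 are red and old KO 6 is blue in the rows of the low members S100a4, S100a6, S100a8, S100a9 and S100a11.

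For each member the 3 tested genes with the most similar log2 CPM over all 15 libraries were found, as a description without a test since group differences and library scaling enter every value. S100a4 was most like Ccl5 (Pearson r 0.914, Spearman rho 0.896), a chemokine of T cells and macrophages, Itgax (0.903, 0.879), which encodes the integrin CD11c, and Ifi27l2b (0.894, 0.918). S100a11 was most like Cyp2c55 (0.907, 0.904), Ly6e (0.906, 0.925) and Pamr1 (0.899, 0.925). S100a10 was most like Mup7 (0.921, 0.857), a major urinary protein gene of a family with near-identical copies, Vmn1r90 (0.899, 0.818) and Plbd1 (0.894, 0.832). S100a6 was most like Apol9b, Mad2l1 and Sulf1 (r 0.847 to 0.892). S100a8 was most like Pot1b, Snx20 and 9130014G24Rik (r 0.823 to 0.912). S100a9 was most like Epb4.1l4a, Sgk1 and Naip5 (r 0.80 to 0.820). S100a1 was most like Polb, Mcee and Anapc13 (r 0.844 to 0.875), and S100a13 was most like Cfdp1, Shfm1 and Uchl5 (r 0.914 to 0.932). Taken within groups, after each group mean was removed, the r of these 24 pairs lay between 0.688 and 0.909. No gene was among the 3 of more than 1 member.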

How the data were processed

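The values are raw read counts per gene, deposited by the authors without normalization or pooling, 1 column per library. Per the labels and the study's methods, RNA from flash-frozen liver was extracted with Trizol, made into stranded poly(A) libraries, sequenced as single-end reads, mapped to mm9 with TopHat2 2.0.11 (version from the submitters' processing notes) and counted with HTSeq. The annotation and strand setting of the counting are not given in the sources used here. Short reads shared by near-identical genes can be lost or misplaced.

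With edgeR 4.0.16 (R 4.3.3), counts were TMM-scaled, filtered with filterByExpr (14258 genes tested) and fitted with the quasi-likelihood test to all 15 libraries, with Benjamini-Hochberg adjustment over all genes and a threshold of 0.05. CPM is relative to the TMM-scaled library size, SE is that of the fitted log2 fold change, and 95% intervals span 1.96 SE on either side. These intervals are approximate and slightly narrower than the quasi-likelihood test implies. On simulated counts the fit found 72% of genes changed 2-fold and 99% of genes changed 4-fold (age comparison, 14254 genes). The changed genes were drawn at random from all levels. These shares need not hold for S100a4, S100a6, S100a8 and S100a9, which had few reads, nor for the genotype comparison. Alternatives were DESeq2 1.42.0, limma voom (limma 3.58.1), other scalings and filters, the libraries of the contrast alone, a replicate block, and each library left out. Positions and exon lengths came from GENCODE M1 on NCBIM37. Of 160 list entries 157 matched by symbol. Members and lists were chosen with earlier results of these data known. All members were named, along with called genes of the other S100, partner and marker lists and the 3 most similar genes per member (Pearson, log2 CPM with a prior count of 2). No batch is given in the labels.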

Additional observations from a re-analysis of the deposited data

Results flagged for a closer look

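In 4 of the 24 sets of 5 libraries (8 genes in 3 groups), 1 library stood apart, its gap to the nearest other library exceeding 0.71 of the group's range (Dixon's 95% critical value). Chance marks about 1 in 20 sets. S100a1 in young WT 6 was at 62.78 CPM, against 54.1 to 55.17 CPM in the other 4 young WT libraries. S100a13 in the same library was at 23.28 CPM, against 14.07 to 15.94 CPM, and this library also had the lowest summed hepatocyte markers and the smallest total count, whose part was not tested. S100a8 in old KO 1 was at 2.284 CPM, against 0.2321 to 0.771 CPM in the other old KO libraries. S100a9 in old WT 7 was at 5.021 CPM, against 1.044 to 2.095 CPM in the other old WT libraries.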

How the results depend on the processing

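The count of S100 genes past the threshold was 3 with age, 0 with genotype and 2 in old KO against young WT. With each library left out in turn it was 1 to 3, 0 in every fit, and 0 to 3. With age the count fell to 1 without young WT 1 or old WT 5. In old KO against young WT it fell to 0 without young WT 1 or old KO 5 and to 1 without young WT 2, 3 or 4. Without old KO 6, the library with muscle transcripts, the counts were 2, 0 and 3, and without young WT 6 they were 3, 0 and 3. With the replicate number as a block, 1 member (S100a10) was called with age (log2 fold change -0.67, adjusted p 0.0203) and 1 (S100a10) in old KO against young WT, and S100a4 (1.22, adjusted p 0.193) and S100a11 (0.44, adjusted p 0.390) were not called with age. Young WT 3, old WT 7 and old WT 10 share their numbers with no other library, so the contrasts of that fit left them out. Over the 9 pairs of libraries that share a number, deviations from the group means correlated at -0.153 to 0.077. No pairing by number was seen in these values, and a shared litter or batch was not tested. The other 7 alternatives gave 2 or 3, 0, and 2 or 3 calls, the fit of the 10 libraries alone called S100a1 and S100a10 in old KO against young WT, and a mean of at least 1 CPM removed S100a4. Directions turned only where the main difference had not passed the threshold. In old KO against old WT the block, which left out old WT 7 and old WT 10, turned S100a6 to 0.247, S100a8 to 0.154, S100a9 to 0.487 and S100a11 to 0.0364. With 1 library left out, S100a6 ranged from -0.457 to 0.0241, S100a9 from -0.753 to 0.184, S100a10 from -0.0826 to 0.308 and S100a11 from -0.317 to 0.0419. In old KO against young WT, S100a8 was -0.0973 with limma voom and ranged from -0.581 (without old KO 1) to 0.426. The causes were not tested. Depth limits S100a4, S100a6, S100a8 and S100a9, which had as few as 5 reads in a library.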
